A study of Mus musculus with 2 samples.

Results

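Cadherins and non-clustered protocadherins were followed across the cell classes of the locus coeruleus (LC) of the mouse, a small noradrenergic nucleus of the pons. The members were all features whose symbol is Cdh followed by digits, or Pcdh followed by digits with or without an x, which leaves out the clustered Pcdha, Pcdhb and Pcdhg genes. This gave 35 of the 32285 features, 23 named Cdh and 12 named Pcdh. RNA of single cells or nuclei was counted in 2 droplet libraries, which the labels number as batches 1 and 2. The animals were wild-type, of the C57BL/6N strain, 3 to 4 weeks old and of either sex. There was 1 group and no treatment, so comparisons ran between cell classes within the libraries. The labels describe both papain-dissociated, methanol-fixed cells and sorted nuclei without saying which library held which, and they give no number of mice per library. The word cell stands for either here.

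Cadherins are calcium-dependent adhesion proteins that bind between neighbouring membranes, mostly to copies of themselves. Classical cadherins (type I and type II) reach the actin cytoskeleton through catenins and take part in sorting neurons into nuclei and in matching synaptic partners. Non-clustered protocadherins of the delta-1 and delta-2 groups adhere more weakly and signal through phosphatase 1 or the WAVE actin complex. In hindbrain nuclei, combinations of type II cadherins are known to mark groups of neurons that settle together.

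Library 1 held 304 barcodes, 5600693 UMIs (unique molecular identifiers, each standing for a captured RNA molecule) and a median of 11010 UMIs per barcode. Library 2 was shallower per cell, with 2796 barcodes, 6895380 UMIs and a median of 1517. After filtering 2973 cells remained, the series states 2578, and 0 barcodes were shared between the libraries. Clusters were made only from 159 cell type marker genes, none of which is a member, and 10 classes were named by their markers. Noradrenergic-like neurons, with all 8 noradrenergic markers detected and 8697 and 7252 CPM of them in libraries 1 and 2, numbered 14 and 77. Excitatory-like neurons (42 and 237), inhibitory-like neurons (33 and 132), mesencephalic trigeminal-like neurons (11 and 38) and cerebellar granule-like neurons (35 and 63) were the other named neuronal classes. A further 65 and 673 neurons stayed unnamed and entered comparisons only as neurons. Glia were named as oligodendrocyte-like (38 and 741 cells), oligodendrocyte precursor-like (OPC-like, 11 and 75 cells) and astrocyte-like (15 and 298 cells). The remaining non-neuronal classes were the ependymal-like (19 and 108 cells) and the vascular-like cells (10 and 199), the last with all 6 endothelial markers detected in both libraries. Haemoglobin and the other erythroid markers were in the 10 vascular-like cells of library 1 (60920 CPM) and at 0 UMIs in the 199 of library 2. Only 1 and 38 cells were microglia-like or macrophage-like, too few for a test by class. Values are CPM, the UMIs of a gene per 1000000 UMIs of the class in that library, and in every pair below library 1 comes first. CPM is not divided by gene length, so it is compared between classes and not between genes.

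The sequence before a RefSeq start site is shown for 4 members whose levels stood far apart between classes. These are Pcdh9 (highest in oligodendrocyte-like cells and low in noradrenergic-like neurons), Cdh20 (highest in astrocyte-like cells), Pcdh8 (UMIs only in neurons) and Pcdh15 (highest in OPC-like cells). Each run is the 250 bases upstream of the RefSeq start of GRCm38.p6, read 5′ to 3′ on the gene's strand, and capitals mark TATAAA and CCAAT on either strand. RefSeq windows were given for 22 of the 35 members, 25 windows in all, and those of Cdh13, Cdh19 and Cdh5 were not among them. Pcdh9 lies on the minus strand (chr14:93890680-93890929), Cdh20 on the plus strand (chr1:104768270-104768519), Pcdh8 on the minus strand (chr14:79771313-79771562) and Pcdh15 on the plus strand (chr10:73821617-73821866). The Pcdh15 window precedes an internal start: it lies inside the gene as GENCODE draws it, downstream of the outermost start.
Pcdh9: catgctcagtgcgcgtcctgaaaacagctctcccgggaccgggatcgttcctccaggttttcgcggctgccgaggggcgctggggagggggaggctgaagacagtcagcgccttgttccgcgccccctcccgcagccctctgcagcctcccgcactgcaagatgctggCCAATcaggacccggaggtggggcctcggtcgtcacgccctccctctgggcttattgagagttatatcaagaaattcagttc
Cdh20: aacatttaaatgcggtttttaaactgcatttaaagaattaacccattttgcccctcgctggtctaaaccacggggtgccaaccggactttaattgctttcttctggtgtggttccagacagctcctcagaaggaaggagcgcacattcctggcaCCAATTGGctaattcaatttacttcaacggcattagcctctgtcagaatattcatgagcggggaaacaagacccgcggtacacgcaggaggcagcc
Pcdh8: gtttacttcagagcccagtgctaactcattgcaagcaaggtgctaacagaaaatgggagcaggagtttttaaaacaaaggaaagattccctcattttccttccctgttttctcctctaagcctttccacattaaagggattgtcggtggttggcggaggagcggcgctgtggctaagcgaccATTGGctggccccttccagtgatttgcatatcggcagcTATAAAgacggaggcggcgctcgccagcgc
Pcdh15: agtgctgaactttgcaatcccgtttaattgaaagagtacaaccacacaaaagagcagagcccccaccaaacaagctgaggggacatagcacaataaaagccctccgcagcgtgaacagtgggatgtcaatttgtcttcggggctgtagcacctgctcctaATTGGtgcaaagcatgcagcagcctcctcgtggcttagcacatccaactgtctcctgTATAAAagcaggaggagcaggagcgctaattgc

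TATAAA began 30 bases before the start of Pcdh8 and 33 bases before the internal start of Pcdh15, and these were the only member windows that held it (8.00% of 25, against 12.4% of all 32851 windows). The CCAAT box stood in all 4 sequences shown and in 15 of the 25 member windows (60.0%, against 33.8% of all windows). CCAAT was searched after these sequences had been seen. TAATTA, the core that many homeodomain factors bind, was found in 1 member window, of Cdh7 (4.00%, against 4.84% of all), and ACAATG, a SOX core, in none (against 10.7% of all). The median member window held 58.4% G and C and 10 CpG dinucleotides, against 52.4% and 6 in all windows. Both strands were searched, a window counted once per motif whether or not motifs overlapped, and a match or its absence is a description of these letters only.

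All 35 members had at least 1 UMI, and 29 had at least 20 UMIs over both libraries. The other 6 were Cdh1 and Cdh3 (E- and P-cadherin of epithelia), Cdh16 (kidney), Cdh17 (intestine), Cdh26 and Pcdh12 (an endothelial protocadherin). Together the members held 43207 UMIs (0.782% of all) in library 1 and 59140 (0.920%) in library 2. The summed level of all members was highest in oligodendrocyte-like cells (20690 and 18210 CPM) and lowest in vascular-like (1331 and 1927 CPM) and ependymal-like cells (1593 and 1545 CPM), with noradrenergic-like neurons at 4274 and 3631 CPM and the other neurons at 8010 and 8350 CPM. Pcdh9 alone gave most of the oligodendrocyte-like sum. It also gave most of the gap between noradrenergic-like neurons (1021 and 562 CPM of Pcdh9) and other neurons (3716 and 3647 CPM). Counted as members at 10 CPM or more in both libraries, inhibitory-like neurons had 23 members, excitatory-like neurons 22, OPC-like cells 21, noradrenergic-like neurons 19 and oligodendrocyte-like cells 15. Astrocyte-like cells had 19, granule-like neurons 18, trigeminal-like neurons 17, ependymal-like cells 16 and vascular-like cells 14. Among the 27 members whose highest class averaged at least 20 CPM, the highest class was the same in libraries 1 and 2 for 18.

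**Figure D1:**
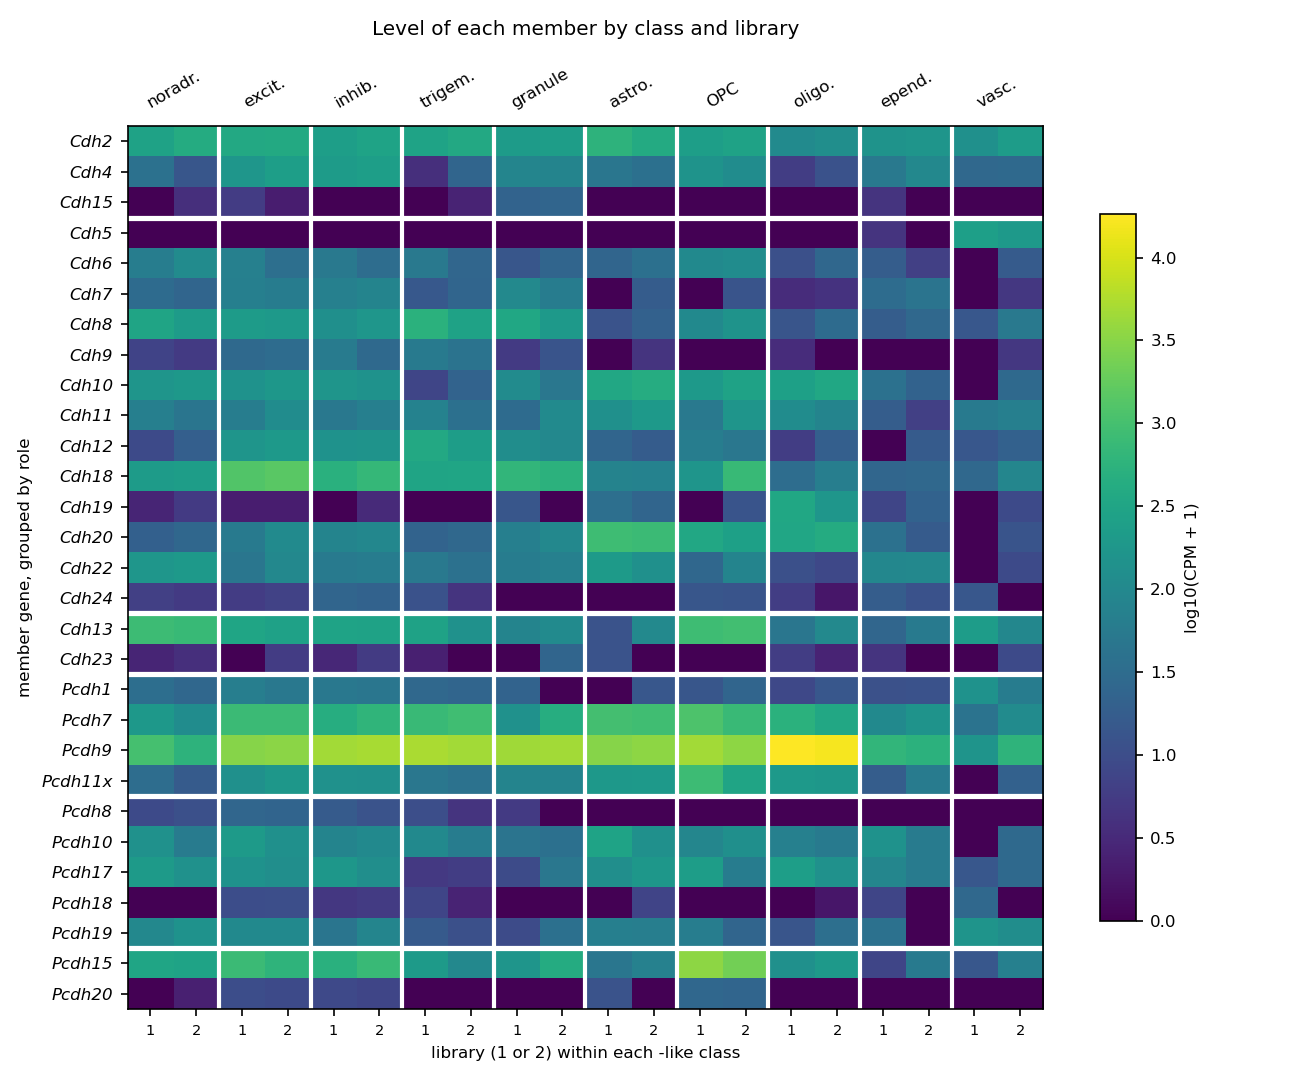
Colour gives log10(CPM + 1) of the 29 members with at least 20 UMIs (rows, grouped by role) in the 10 named classes (columns), with library 1 and library 2 side by side in each class. Cdh5 is bright only in vascular-like cells, Cdh19 is brightest in oligodendrocyte-like cells, and Pcdh9 is brightest there at 18200 and 15820 CPM.

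Neurons of all kinds were first set against non-neuronal cells. Cdh18, Cdh12, Cdh8, Cdh9 and Pcdh8 were among the members higher in neurons, and Cdh19, Cdh5 and Cdh20 among the lower. Of 28 members tested, 14 were higher in neurons, where 25.9% of all genes tested were, and 6 were lower, where 24.0% of all genes were. The median log2 fold was 0.85 over the members and 0.08 over all 13491 genes tested. By role, 2 of 2 type I cadherins tested were higher, 7 of 13 type II cadherins were higher and 4 lower, 1 of 4 delta-1 protocadherins was higher and 2 lower, and 2 of 5 delta-2 protocadherins were higher. Of 2379 tested genes spanning at least 100 kb, 34.9% were higher and 32.0% lower, against 24.0% and 22.3% of shorter genes. Of the 19 members of at least 100 kb, 12 were higher (63.2%) and 4 lower (21.1%). Malat1, a nuclear RNA, also differed, at 10290 and 11660 CPM in neurons and 26530 and 31020 CPM in non-neuronal cells. Its part and that of length in the result were not tested.

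Cdh18, a type II cadherin of the brain, stood at 735 and 871 CPM in neurons and at 44.7 and 95.4 CPM in non-neuronal cells (log2 fold 3.54, SE 0.24, adjusted p = 9.57e-08, by the quasi-likelihood test of edgeR, Benjamini-Hochberg adjusted, as for every adjusted p below). Cdh12, another type II cadherin of the brain, stood at 161 and 162 CPM in neurons and at 10.6 and 19.8 CPM in other cells (3.29, SE 0.28). Cdh8, known for marking sets of neurons and their targets, stood at 272 and 217 CPM against 21.3 and 36.6 CPM (2.99, SE 0.28). For all of them both libraries' neurons lay above both libraries' other cells, and the fold of Cdh8 was 3.63 in library 1 alone and 2.44 in library 2 alone. Cdh9, which takes part in synapse formation in the hippocampus, had 156 and 128 UMIs in neurons and 1 and 2 UMIs in other cells, a pooled ratio of 32.0 with a counting interval of 10.8 to 156. Pcdh8, an activity-induced delta-2 protocadherin that acts on N-cadherin at synapses, had 74 and 64 UMIs in neurons and none elsewhere, so it was at least 15.5-fold higher, taking 3 counts over both libraries as the floor. For both genes the neuronal counts lay far above the non-neuronal counts in each library.

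Among the type I cadherins, Cdh4 (R-cadherin) stood at 124 and 164 CPM in neurons and 37.2 and 28.9 CPM in other cells (log2 fold 2.12, SE 0.26). Cdh7, a type II cadherin, stood at 44.1 and 51.7 CPM against 10.6 and 9.15 CPM (2.23, SE 0.30). Cdh13 (T-cadherin), which is held by a lipid anchor and has no cytoplasmic tail, stood at 447 and 387 CPM against 118 and 127 CPM (1.74, SE 0.21). These 3 genes also did not overlap between the pooled groups. Here and below, members described this way were picked by their calls. Non-overlap therefore adds no support to a call, and its share over all genes was not counted. The remaining called members were Cdh6 (58.0 and 54.2 CPM against 20.2 and 27.9 CPM, 1.16, SE 0.26) and Pcdh1 (45.2 and 41.1 CPM against 19.1 and 18.8 CPM, 1.14, SE 0.26), with smaller folds for Cdh22, Cdh2, Pcdh15 and Pcdh19. Cdh22 stood at 87.0 and 97.9 CPM against 54.2 and 38.5 CPM. Pcdh15 stood at 465 and 578 CPM against 348 and 232 CPM, and Pcdh19 at 69.4 and 87.1 CPM against 41.5 and 45.3 CPM. Some non-neuronal classes lay above the neurons as a whole. In OPC-like cells Pcdh15 stood at 3386 and 2251 CPM, Cdh13 at 859 and 929 CPM and Cdh6 at 103 and 119 CPM. Cdh22 stood at 208 and 135 CPM in astrocyte-like cells. In vascular-like cells Pcdh1 stood at 148 and 59.9 CPM and Pcdh19 at 161 and 120 CPM. Cdh2 (N-cadherin), the type I cadherin of synaptic junctions, stood at 308 and 367 CPM against 178 and 190 CPM. It was lowest in oligodendrocyte-like cells (108 and 129 CPM), and highest in astrocyte-like cells in library 1 (566 and 406 CPM) and in noradrenergic-like neurons in library 2 (288 and 413 CPM).

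Among the lower members, Cdh5 (VE-cadherin, the adhesion protein of endothelial junctions) had 71 UMIs in non-neuronal cells and none in neurons, so it was at least 70.1-fold lower in neurons. Of 1039 neurons of library 2 thinned to 1000 UMIs, 0 had a Cdh5 UMI, which allows up to 0.354% of cells with a UMI at this depth (exact 95% limit) and sets no limit on cells that carry the transcript, against 17.1% of 88 vascular-like cells (9.87 to 26.6%). Unthinned, the shares were 0 of 1220 and 36 of 199 cells. In library 1 the thinned shares were 0 of 200 neurons and 3 of 10 vascular-like cells. The median depths in library 2 were 2301 UMIs in neurons and 912 in vascular-like cells. Cdh19, known from glia and the Schwann cell lineage, stood at 1.31 and 2.76 CPM in neurons and 153 and 108 CPM in other cells (log2 fold -5.60, SE 0.34), at -6.24 in library 1 alone and -5.11 in library 2 alone. Its neuronal level was 0.384 and 1.60% of that in oligodendrocyte-like cells, and the 10 oligodendrocyte markers summed to 0.631 and 1.50% of theirs in the same neurons, so the Cdh19 UMIs of neurons were at the level of those markers. Cdh20 stood at 44.1 and 75.6 CPM against 267 and 378 CPM (-2.45, SE 0.21), and Pcdh9 at 3064 and 3143 CPM against 8775 and 10080 CPM (-1.61, SE 0.15). Oligodendrocyte-like cells gave 7427 of the 8255 and 19304 of the 20925 non-neuronal Pcdh9 UMIs. Pcdh9 stood at 4694 and 3430 CPM in OPC-like, 3048 and 3409 CPM in astrocyte-like and 632 and 542 CPM in ependymal-like cells. It was lowest in vascular-like cells (mean 380 CPM). Cdh10 stood at 125 and 150.2 CPM against 175 and 286 CPM (-0.73, SE 0.21) and Pcdh11x at 98.2 and 119.5 CPM against 175 and 154 CPM (-0.60, SE 0.22), both lower in neurons in both libraries. DESeq2 called 11 members where edgeR called 20. It gave no call for Cdh5, Cdh6, Cdh10, Cdh22, Pcdh1, Pcdh8, Pcdh11x, Pcdh15 or Pcdh19. Cdh10 also lost its call without the filter on low counts, Pcdh19 with cells thinned to 2000 UMIs, and Pcdh11x without the filter and with at least 500 genes per cell.

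**Figure D2:**
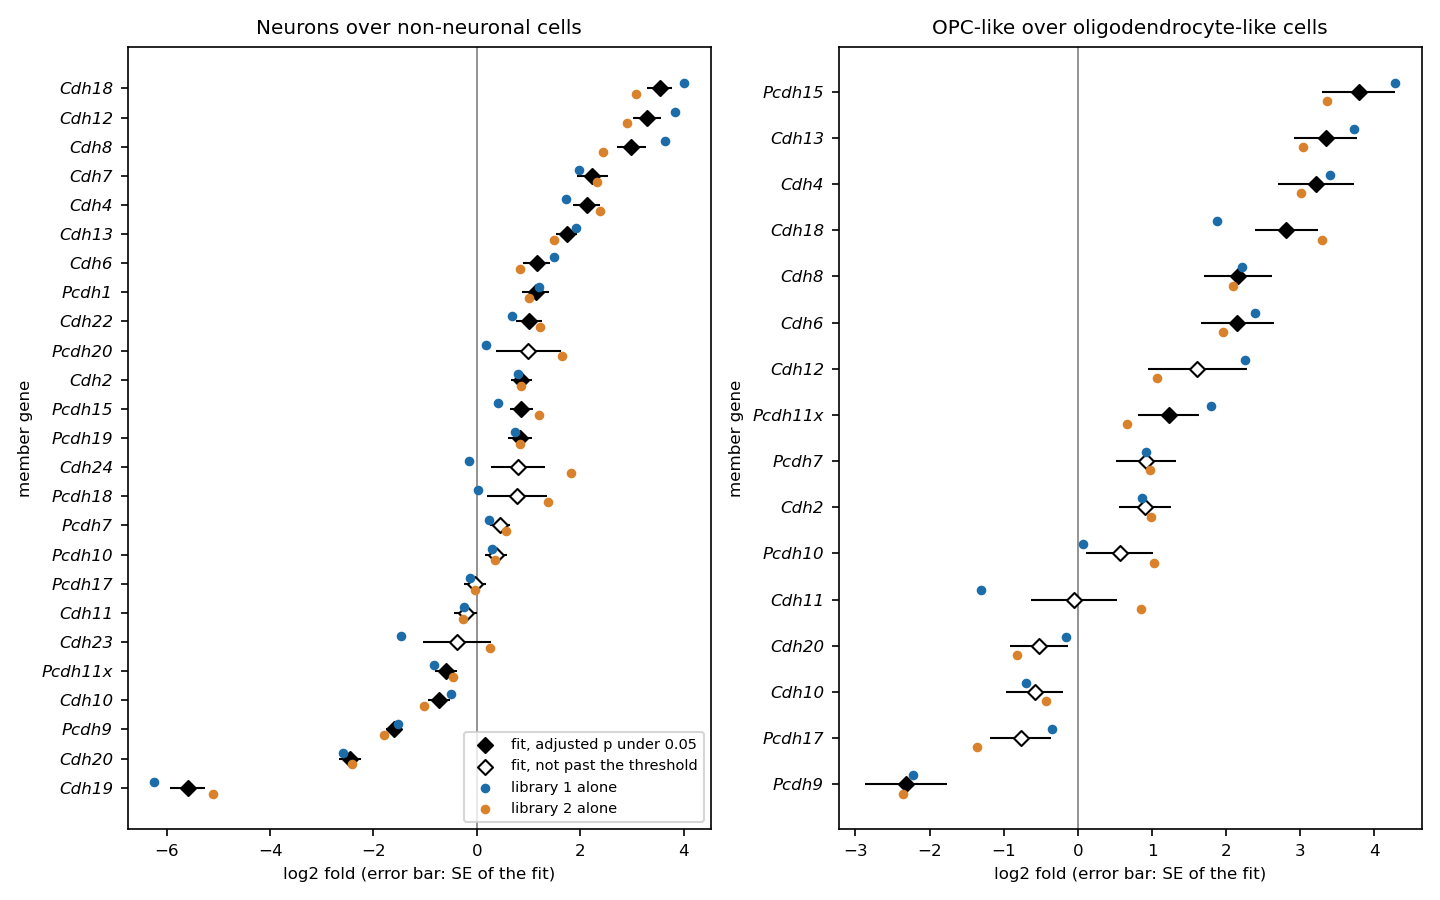
Log2 fold of members in neurons over non-neuronal cells (left) and in OPC-like over oligodendrocyte-like cells (right), with diamonds for the fit of both libraries, bars for its SE, filled diamonds for calls, and dots for each library alone. Members with 3 or fewer UMIs in a group are left out. Cdh18 (3.54) and Cdh19 (-5.60) are at the ends on the left, and Pcdh15 (3.79) and Pcdh9 (-2.32) at the ends on the right.

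Noradrenergic-like neurons differed in 15 members from the neurons around them. Cdh13, Cdh22 and Pcdh19 were higher, and all 4 delta-1 protocadherins with Cdh12, Cdh9, Cdh18, Cdh20, Cdh7, Cdh4, Pcdh15 and Pcdh18 were lower. Of 25 members tested, 3 were higher, where 14.8% of all genes tested were, and 12 were lower, where 14.1% of all genes were. The median log2 fold was -0.92 over the members and -0.01 over all 11642 genes. Many members are long genes, and length moved with this result: of 2194 tested genes spanning at least 100 kb, 37.6% were called lower, against 8.65% of 9448 shorter genes. Of the 18 members of at least 100 kb, 10 were lower (55.6%) and 3 higher. This length bound was chosen after the calls were known, and the part of length in the result was not tested. Depth also differed, with a median of 81985 and 7494 UMIs in a noradrenergic-like cell and 13724 and 2164 in another neuron, and mitochondrial UMIs made 4.37 and 7.81% of the former and 3.11 and 5.14% of the latter.

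Cdh13 stood at 833 and 742 CPM in noradrenergic-like neurons and at 324 and 317 CPM in other neurons (log2 fold 1.24, SE 0.14, adjusted p = 0.000168). With cells thinned to 1000 UMIs, 10 of the 14 in library 1 kept a Cdh13 UMI (71.4%, exact 95% limits 41.9 and 91.6%). In library 2 this held for 39 of 74 (52.7%, limits 40.8 and 64.4%). Among other neurons it held for 34 of 186 (18.3%, limits 13 and 24.6%) and 220 of 965 (22.8%, limits 20.2 and 25.6%), and among ependymal-like cells for 0 of 19 and 6 of 75. Before thinning the noradrenergic-like shares were 14 of 14 and 70 of 77 cells, those of other neurons 115 of 186 and 415 of 1143, and the ependymal-like shares 15.8% of 19 and 9.26% of 108, at median depths of 8967 and 1469 UMIs per ependymal-like cell. Cdh22, a type II cadherin of pituitary and brain, stood at 170 and 198 CPM against 60.7 and 78.3 CPM (1.35, SE 0.16, adjusted p = 0.000222). Both genes were higher in both libraries with no overlap, and of 8 neuronal clusters with at least 5 cells in each library the noradrenergic-like cluster had the highest level of each in both libraries. Pcdh19, an X-linked delta-2 protocadherin whose human gene is mutated in an epilepsy of girls, stood at 98.3 and 146 CPM against 60.1 and 75.5 CPM (0.77, SE 0.17, adjusted p = 0.00807). Its lowest noradrenergic-like value lay above the highest value of the other neurons.

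The type II cadherin Cdh12 showed the lowest fold, with 9 and 13 UMIs in noradrenergic-like neurons. It stood at 8.11 and 18.3 CPM there and at 210.3 and 190.3 CPM in other neurons (log2 fold -3.99, SE 0.28, adjusted p = 1.07e-05), at -4.63 in library 1 alone and -3.36 in library 2 alone. Cdh9 stood at 6.31 and 4.21 CPM against 42.9 and 34.3 CPM (-2.72, SE 0.33), the library 2 value resting on 3 UMIs. Cdh18 stood at 215 and 235 CPM against 901 and 995 CPM (-2.12, SE 0.14, adjusted p = 9.58e-06). All 3 were several-fold below the other neurons in both libraries, and for Cdh12 and Cdh18 the noradrenergic-like cluster was the lowest of the 8 neuronal clusters in both. Cdh20 stood at 18.9 and 25.3 CPM against 52.1 and 85.4 CPM (-1.62, SE 0.23). Cdh7 stood at 29.7 and 23.9 CPM against 48.6 and 57.1 CPM (-0.98, SE 0.24). The type I cadherin Cdh4 stood at 37.9 and 12.6 CPM against 152 and 194 CPM (-2.67, SE 0.32), with a fold of -2.06 in library 1 alone and -3.88 in library 2 alone. None of these values overlapped between the groups, for members that were picked by their calls.

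Delta-1 protocadherins carry a cytoplasmic motif that binds phosphatase 1, and each of the 4 was lower in noradrenergic-like neurons. Pcdh9 stood at 1021 and 562 CPM there and at 3716 and 3647 CPM in other neurons (log2 fold -2.32, SE 0.19, adjusted p = 2.76e-05). Pcdh7 stood at 188 and 117 CPM against 641 and 736 CPM (-2.22, SE 0.21). Pcdh11x stood at 32.5 and 15.5 CPM against 119 and 139.8 CPM (-2.37, SE 0.27), at -1.93 in library 1 alone and -3.14 in library 2 alone. The noradrenergic-like cluster was the lowest of the 8 neuronal clusters in both libraries for Pcdh9 and Pcdh11x, and in library 2 for Pcdh7. The Pcdh9 level of noradrenergic-like neurons was 5.61 and 3.55% of that in oligodendrocyte-like cells, while the oligodendrocyte markers there stood at 0.642 and 0.663% of theirs. In vascular-like cells Pcdh9 (0.886 and 3.78%) and the oligodendrocyte markers (0.966 and 2.83%) stood at like shares of the oligodendrocyte-like level. Pcdh1 stood at 33.4 and 25.3 CPM against 48.9 and 44.2 CPM, the call nearest the threshold of the 15 (adjusted p = 0.0438).

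Of the delta-2 protocadherins, Pcdh18 had no UMI in noradrenergic-like neurons and 20 and 22 UMIs in other neurons, so it was at least 3.58-fold lower. Pcdh15, a partner of Cdh23 in the tip links of hair cells that is also known from oligodendrocyte precursors, stood at 319 and 301 CPM against 511 and 632 CPM. The members that did not pass the threshold were Cdh2 (288 and 413 CPM against 314 and 358 CPM, log2 fold -0.02, SE 0.15), Cdh8 (310.1 and 220.5 CPM against 260.1 and 216 CPM, 0.09, SE 0.15), Cdh10, Cdh11, Cdh6, Cdh24, Pcdh8, Pcdh10 and Pcdh17, with log2 folds from -0.96 to 0.72. Pcdh20, with 0 and 1 UMIs in noradrenergic-like and 17 and 19 in other neurons, had a pooled ratio of 0.109 with a counting interval of 0.00268 to 0.645 and no call. Cdh6 differed between the libraries, at 63.1 and 114 CPM against 56.4 and 42.6 CPM. The calls of Cdh7, Pcdh1, Pcdh18 and Pcdh19 were lost with DESeq2, and those of Cdh7, Pcdh1 and Pcdh19 with cells thinned to 2000 UMIs. Cdh7, Pcdh1 and Pcdh18 also lost theirs when noradrenergic cells were taken by 2 of 3 markers, Pcdh19 without trigeminal-like and granule-like neurons in the reference, and Pcdh1 without the library block (log2 fold -0.68, adjusted p = 0.0838). That marker gate (2 of Dbh, Th and Slc6a2) took 22 and 76 neurons, of which 13 and 76 were in the noradrenergic-like cluster.

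**Figure D3:**
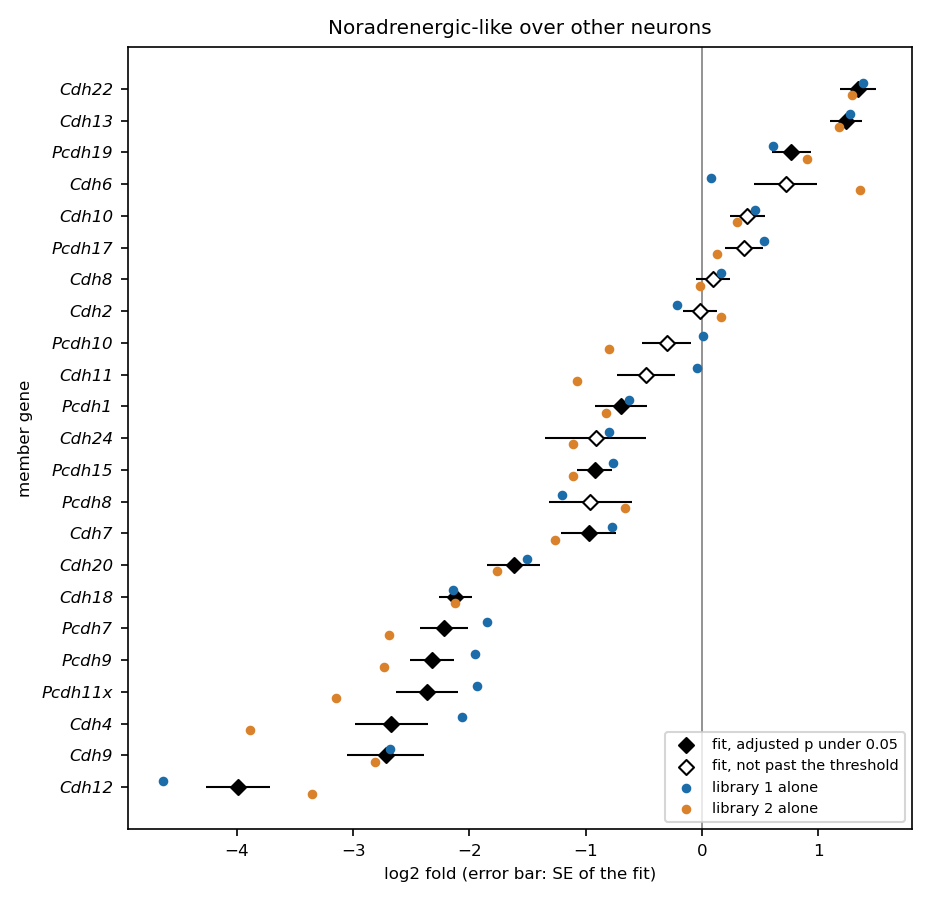
Log2 fold of the members in noradrenergic-like over other neurons, with diamonds for the fit of both libraries (filled where called), bars for its SE and dots for each library alone. Members with 3 or fewer UMIs in a group are left out. Cdh22 (1.35) and Cdh13 (1.24) are at the top and Cdh12 (-3.99) at the bottom, and Cdh4 (-2.06 and -3.88) shows the widest gap between libraries among the called members plotted.

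Inhibitory-like neurons, which carry GABA or glycine markers, differed from excitatory-like neurons in few members. Of 23 members tested, 2 were higher in inhibitory-like neurons, where 2.80% of all genes tested were, and 3 were lower, where 3.19% of all genes were. The median log2 fold was -0.23 over the members and 0.00 over all 8002 genes. Of 1919 tested genes of at least 100 kb, 6.57% were higher and 8.18% lower, against 1.61% and 1.61% of shorter genes. Of the 18 members of at least 100 kb, 1 was higher (5.56%) and 2 lower (11.1%), near the shares of long genes. The part of length in this result was not tested. Cdh18 stood at 500.3 and 681 CPM in inhibitory-like and at 1281 and 1472 CPM in excitatory-like neurons (log2 fold -1.21, SE 0.16, adjusted p = 5.37e-08), with every excitatory-like value above every inhibitory-like value. It was called under each alternative run that gives a test, and it was the only member of which that held in this comparison. A cluster of 11 and 89 unnamed neurons, which has Cdh18 among its leading genes, stood at 2875 and 1295 CPM.

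The other calls of that comparison were smaller or rested on few UMIs. Pcdh10, a delta-2 protocadherin of axon growth, stood at 82.1 and 103 CPM in inhibitory-like and 212 and 137 CPM in excitatory-like neurons (log2 fold -0.88, SE 0.21). Pcdh7 stood at 448 and 620 CPM against 793 and 789 CPM (-0.57, SE 0.16). In the other direction, Pcdh9 stood at 4618 and 4955 CPM against 3027 and 3316 CPM (0.61, SE 0.16). Cdh24, a little-studied type II cadherin, had 12 and 9 UMIs in inhibitory-like and 4 and 5 UMIs in excitatory-like neurons, or 23.5 and 20.5 CPM against 4.64 and 5.85 CPM (1.62, SE 0.48). The values of these 4 genes did not overlap between the classes, which adds no support, since the genes were picked by their calls. Without the library block, with DESeq2, with 2 times the doublets removed or with cells thinned to 2000 UMIs, 1 member was called in place of 5, and Pcdh10, Pcdh7, Pcdh9 and Cdh24 each lost their call in 4 or more alternatives. The SE of the log2 fold ran from 0.16 to 0.48 over the 23 members. Pcdh19 (-0.65, SE 0.24) had no call although its fold was larger than that of Pcdh7. The lack of a call in the other 18 therefore does not show equal levels.

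The oligodendrocyte lineage showed a change of members between precursors and mature cells. Pcdh15, Cdh13, Cdh4 and Cdh18 were higher in OPC-like cells, and Cdh19 and Pcdh9 were higher in oligodendrocyte-like cells. Of 17 members tested, 7 were higher in OPC-like cells, where 17.5% of all genes tested were, and 2 were lower, where 16.5% of all genes were. The median log2 fold was 0.92 over the members and -0.14 over all 4200 genes, and 33.6% of the 1518 genes of at least 100 kb were higher in OPC-like cells against 8.43% of shorter ones. With 11 and 75 OPC-like cells, all members but Pcdh9 and Pcdh15 had under 100 UMIs there in each library. Malat1 stood at 10380 and 19640 CPM in OPC-like and at 36490 and 34270 CPM in oligodendrocyte-like cells, and its part and that of length in the result were not tested.

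Pcdh15 stood at 3386 and 2251 CPM in OPC-like and at 137 and 196 CPM in oligodendrocyte-like cells (log2 fold 3.79, SE 0.50, adjusted p = 0.000615). Cdh13 stood at 859 and 929 CPM against 46.6 and 99.98 CPM (3.34, SE 0.42, adjusted p = 0.000583), beside its 833 and 742 CPM in noradrenergic-like neurons. Of OPC-like cells thinned to 1000 UMIs, 6 of 11 and 18 of 33 kept a Cdh13 UMI. Cdh4 stood at 154 and 119 CPM against 4.90 and 10.7 CPM (3.21, SE 0.51). For each of these the groups were far apart in both libraries. Cdh8 stood at 103 and 155 CPM against 12.3 and 30.3 CPM (2.16, SE 0.46), and Cdh6 at 103 and 119 CPM against 9.80 and 25.4 CPM (2.15, SE 0.49), on 8 and 13 UMIs and on 8 and 10 UMIs in OPC-like cells. Pcdh11x stood at 834 and 310 CPM against 194 and 176 CPM (1.23, SE 0.41). Its 2 OPC-like values lay far apart but both above those of oligodendrocyte-like cells.

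Cdh18 stood at 167 and 750.2 CPM in OPC-like and at 31.9 and 66.4 CPM in oligodendrocyte-like cells (log2 fold 2.81, SE 0.42), at 1.88 in library 1 alone and 3.29 in library 2 alone. The 10 pan-neuronal markers moved the same way in OPC-like cells, at a sum of 1706 CPM in library 1 and 5061 CPM in library 2 with all 10 detected in both, against 414 and 1001 CPM in oligodendrocyte-like cells and 19610 and 21300 CPM in neurons. Their part in the OPC-like levels of Cdh18, Cdh8 and Cdh4 was not tested. Cdh19 had 0 and 1 UMIs in OPC-like and 139 and 211 UMIs in oligodendrocyte-like cells, a pooled ratio of 0.0287 with a counting interval of 0.000725 to 0.161. Pcdh9 stood at 4694 and 3430 CPM in OPC-like and at 18200 and 15820 CPM in oligodendrocyte-like cells (-2.32, SE 0.55). Pcdh20, with 2 UMIs in OPC-like cells of each library and none in oligodendrocyte-like cells, was not among the 17 members tested. The calls of Cdh6, Cdh8 and Pcdh11x were lost with DESeq2, and that of Pcdh11x also with other size factors and without the filter on low counts.

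**Figure D4:**
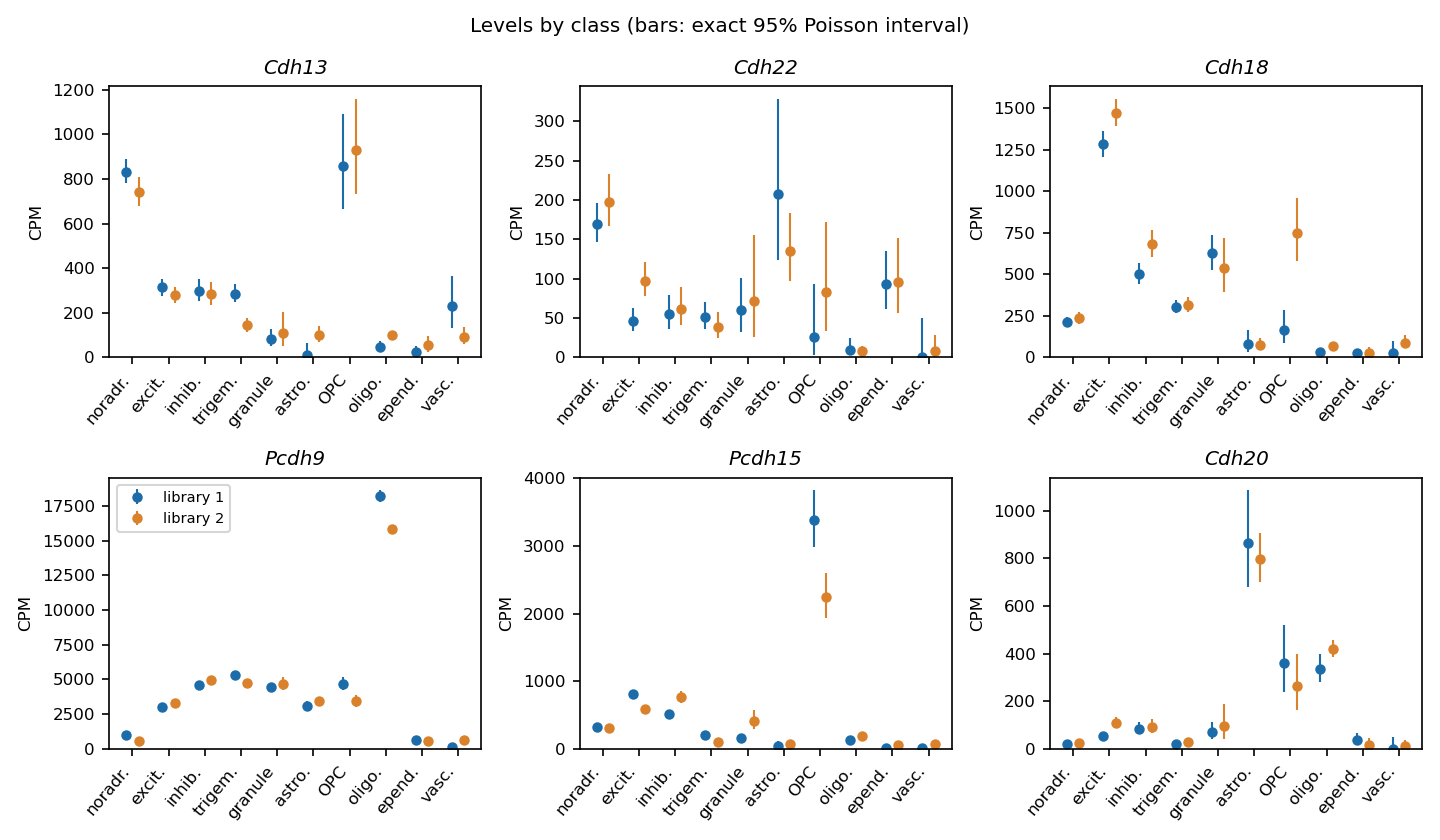
Level in CPM (linear axis from 0) of 6 members in the 10 named classes, with dots for library 1 and library 2 and bars for the exact 95% Poisson interval of the count. Cdh13 has 2 high classes (noradrenergic-like at 833 and 742 CPM, OPC-like at 859 and 929 CPM), and Pcdh9 and Pcdh15 have 1 each. Cdh20 is highest in astrocyte-like cells, with oligodendrocyte-like (336 and 420 CPM) and OPC-like cells (359 and 262 CPM) next. Cdh18 is highest in excitatory-like neurons.

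Each of the 10 classes was then set against the mean of the other 9 in 1 fit of 20 sums, in which 23 members and 9538 genes were tested. These contrasts share sums and are not independent, and they gave 74 pairs of member and class that were higher and 49 that were lower. In excitatory-like neurons 15 members were higher (19.5% of all genes) and 0 lower (6.42% of all genes), led by Cdh18 (log2 fold 2.97, SE 0.21), Cdh4 (175 and 247 CPM, 2.02, SE 0.21) and Cdh12 (168 and 193 CPM, 2.01, SE 0.22). In inhibitory-like neurons 11 members were higher (16.7% of all genes) and 0 lower (5.06%), led by Cdh9 (58.6 and 27.4 CPM, 2.19, SE 0.33, 2.73 and 1.59 in the single libraries) and Cdh4 (215 and 239 CPM, 2.15, SE 0.22). Of these, Cdh13 (adjusted p = 0.0615) and Pcdh11x (adjusted p = 0.0734) lost their call without the library block, and Pcdh1, Cdh13 and Pcdh11x lost theirs with DESeq2. Noradrenergic-like neurons had 7 higher members (28.1% of all genes) and 6 lower (14.0%), with Cdh13 (2.21, SE 0.22) and Cdh22 (1.81, SE 0.21) again the highest and Pcdh9 (-2.02, SE 0.31, -1.39 and -2.47 in the single libraries) the lowest. There Cdh8 (1.45, SE 0.22, 2.12 and 1.25 in the single libraries), Cdh6 (1.28, SE 0.25), Pcdh17 (208 and 143 CPM, 1.19, SE 0.21) and Cdh10 (164 and 183 CPM) were also higher than the mean of the other classes. None of these passed the threshold against other neurons, and the call of Cdh10 turned to -0.05 with cells thinned to 2000 UMIs.

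Mesencephalic trigeminal neurons are proprioceptive cells that lie beside the LC. The cells named after them had 6 higher members (26.1% of all genes) and 7 lower (13.2%). Cdh12 stood at 372 and 236 CPM (log2 fold 2.85, SE 0.21, 3.46 and 2.39 in the single libraries), Cdh8 at 530.4 and 289 CPM (2.18, SE 0.22, 2.92 and 1.71) and Cdh9 at 55.0 and 41.5 CPM (2.36, SE 0.31). In library 1 this cluster had the highest level of Cdh12 and Cdh8 among the 8 neuronal clusters, and in library 2 that of Cdh8. In the other direction, Pcdh17, a delta-2 protocadherin of axon bundles, stood at 4.12 and 4.98 CPM (-3.55, SE 0.39), on 3 UMIs in each library, where the other neuronal clusters ranged up to 241 and 182 CPM. Cdh10 stood at 6.87 and 21.6 CPM (-2.93, SE 0.35, -3.25 and -2.32 in the single libraries), and Cdh4 at 2.75 and 23.2 CPM (-2.05, SE 0.36, -3.13 and -1.25). Cells thinned to 2000 UMIs lost 5 of the 7 lower calls, those of Cdh10, Cdh4, Pcdh19, Pcdh11x and Cdh19 (0 UMIs in this class), and kept those of Pcdh17 and Cdh20. The higher call of Cdh18 (304 and 315 CPM, 0.62) was lost with thinned cells, with DESeq2 and without the library block (adjusted p = 0.0713). Cerebellar granule-like neurons had 5 higher members (9.62% of all genes) and 1 lower (1.74%). Cdh7 stood at 98.5 and 59.6 CPM there (2.01, SE 0.37, 2.63 and 1.13 in the single libraries) and Cdh18 at 625 and 536 CPM (1.71, SE 0.26, 2.18 and 1.11 in the single libraries). Cdh8 (347 and 191 CPM), Cdh12 (119.9 and 95.3 CPM) and Pcdh9 were the other higher members, and Pcdh17 (8.56 and 47.7 CPM) the lower one. The call of Cdh12 turned to -0.30 with at least 500 genes per cell and was lost with thinned cells, that of Pcdh17 was lost with thinned cells, and that of Pcdh9 without the library block (adjusted p = 0.0765). Cdh15 (M-cadherin), known from muscle and from cerebellar granule cells, was too scarce for the fit, and 5 of its 11 UMIs in library 1 and 2 of 9 in library 2 came from granule-like neurons (21.4 and 23.8 CPM).

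Astrocyte-like cells had 10 higher members (13.7% of all genes) and 4 lower (7.35%). Cdh20 stood at 866 and 798 CPM (log2 fold 3.63, SE 0.21, adjusted p = 7.13e-26), and Cdh10 at 358 and 439 CPM (2.11, SE 0.25). Cdh22 stood at 208 and 135 CPM (1.68, SE 0.30), which overlapped the 170 and 198 CPM of noradrenergic-like neurons. Cdh11, a mesenchymal cadherin, stood at 139 and 201 CPM (1.54, SE 0.30), and Pcdh7 at 981 and 900.0 CPM (1.42, SE 0.25). Pcdh10 (300.1 and 135 CPM), Pcdh17 (127 and 181 CPM), Pcdh11x (185 and 204 CPM), Cdh19 (34.6 and 23.1 CPM) and Cdh2 were the other higher members. Cdh20 was highest in astrocyte-like cells in both libraries, with OPC-like cells at 359 and 262 CPM and oligodendrocyte-like cells at 336 and 420 CPM next, and the 9 astrocyte markers stood at 1.61 and 2.84% of their astrocyte-like level in oligodendrocyte-like cells. Oligodendrocyte-like cells had 7 higher members (23.0% of all genes) and 8 lower (15.7%). Cdh19 stood at 341 and 173 CPM (4.98, SE 0.23, 5.63 and 4.45 in the single libraries), Pcdh9 at 18200 and 15820 CPM (3.33, SE 0.20), Cdh20 came next (2.73, SE 0.20), and Pcdh17 stood at 248 and 143 CPM (1.76, SE 0.21). Cdh10 (265 and 348 CPM), Pcdh11x (194 and 176 CPM) and Cdh11 (118 and 82.0 CPM) were also higher. OPC-like cells had 9 higher members (7.12% of all genes) and 0 lower (0.965%), led by Pcdh15 (3.94, SE 0.23, 4.52 and 3.29 in the single libraries) and Pcdh11x (2.78, SE 0.28, 3.50 and 1.77 in the single libraries). The OPC-like call of Cdh18 (1.13, SE 0.30) rested on library 2, which alone gave 1.64, while library 1 alone gave -0.17. Cdh20, Cdh13, Cdh6, Cdh10, Cdh4 and Pcdh7 (1193 and 774 CPM) were the others.

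Ependymal-like and vascular-like cells had few members called higher. Ependymal-like cells, the ciliated lining of the ventricle, had 1 higher member (23.4% of all genes) and 11 lower (13.7%). The higher one was Cdh22, at 93.3 and 95.6 CPM (log2 fold 0.98, SE 0.29), a call lost with cells thinned to 2000 UMIs. Vascular-like cells had 3 higher members (18.7% of all genes) and 12 lower (12%). Cdh5 stood at 256 and 204 CPM there (5.62, SE 0.38, a call lost with DESeq2) and had 1 UMI in any other named class, in ependymal-like cells of library 1. Pcdh1 stood at 148 and 59.9 CPM (1.84, SE 0.39, 2.58 and 1.58 in the single libraries) and Pcdh19 at 161 and 120 CPM (1.55, SE 0.35). Beside them, the 8 mural markers summed to 1667 and 798 CPM in vascular-like cells, with 7 and 8 of them detected, and their part and that of the erythroid markers in these 2 calls was not tested. In library 1 the 10 vascular-like cells gave no UMI of Cdh20, Cdh22, Pcdh11x, Cdh10, Cdh7 or Pcdh10, which that depth allows up to 40.3 CPM.

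Genes that work with cadherins were counted from lists made for this purpose. Of all genes tested, 25.9% were higher and 24.0% lower in neurons, and 14.8% and 14.1% in noradrenergic-like neurons. The shares were 17.5% and 16.5% for OPC-like cells and 2.80% and 3.19% for inhibitory-like neurons. A count near these shares says nothing particular about its list. Among 12 catenins and p120 relatives, which tie classical cadherins to actin, 3 were higher in neurons and 6 lower than in non-neuronal cells, with Ctnnd2 (992 and 1106 CPM against 642 and 527 CPM) and Pkp2 higher and Ctnna3 (22.03 and 34.9 CPM against 685 and 705 CPM, log2 fold -4.62, SE 0.24) and Ctnna1 lower. Ctnna3 was also lower in OPC-like than in oligodendrocyte-like cells (12.8 and 59.5 CPM against 1139 and 1060 CPM), as was Jup, and Ctnnd2 and Arvcf were higher, in all 2 and 3 of 10 tested. In noradrenergic-like neurons 3 of 12 were higher (Pkp2 and Pkp4 the most) and 3 lower (Ctnna1 and Ctnnal1 the most). Of 8 large cadherins of the Fat, Dachsous and Celsr families, 0 were higher and 4 lower in noradrenergic-like than in other neurons: Fat3 stood at 33.4 and 50.6 CPM against 333 and 409 CPM (-3.20, SE 0.18), and Fat1 at 0.901 and 1.41 CPM against 37.1 and 42.6 CPM, with Fat2, known from cerebellar granule cells, and Dchs2 as the others. Against non-neuronal cells, 3 of 9 were higher in neurons (Celsr3 and Fat2 the most) and 2 lower (Celsr1 and Fat1), and between inhibitory-like and excitatory-like neurons 2 of 6 were higher (Dchs2 and Fat4) and 0 of 10 catenins were called. Fat3 (718 and 452.5 CPM against 4.90 and 20.5 CPM) and Fat4 were higher in OPC-like than in oligodendrocyte-like cells.

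Of 6 calsyntenins and cadherin-related genes tested, 4 were higher in neurons, with Clstn3 (262 and 265 CPM against 6.38 and 28.4 CPM) and Clstn2 leading, and 2 were lower, Cdhr4 and Cdhr3. Clstn2 was lower in noradrenergic-like than in other neurons (89.2 and 54.8 CPM against 294 and 281 CPM, log2 fold -2.03, SE 0.19) and Cdhr1 and Ret were higher, and Clstn2 was the 1 of 3 called between inhibitory-like and excitatory-like neurons (651 and 540.1 CPM against 264 and 221 CPM). Among nectins and afadin, 2 of 4 were higher in neurons (Nectin2 and Afdn) and 1 lower (Nectin1), and Nectin3 was the 1 of 4 lower in noradrenergic-like neurons. Of 15 junction and protocadherin partners, Cyfip2, a subunit of the WAVE complex, and Abi2 were the 2 higher in neurons, and 5 were lower, Fjx1 and Actn4 the most. In noradrenergic-like neurons 2 of 14 were higher (Ppp1ca and Adam10) and 1 lower (Vcl). Ppp1ca, the phosphatase subunit that delta-1 protocadherins bind, stood at 85.6 and 75.8 CPM against 40.3 and 43.4 CPM (0.89, SE 0.19). Of the desmosomal cadherins tested, Dsc2 was higher and Dsg2 lower in neurons. Of the tip-link and Usher genes, Whrn was the 1 of 4 higher in neurons and Adgrv1 and Myo7a the 2 lower. Whrn and Ush1c were the 2 of 4 higher in noradrenergic-like neurons, and Cdh23, the tip-link partner of Pcdh15, had 9 and 19 UMIs in all cells of the libraries. The backgrounds for these lists are those given for the members of the same comparison.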

How the data were processed

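Droplet 3′ libraries of mouse LC cells or nuclei were used as deposited. The authors deposited filtered matrices of counts, whole-number UMIs of every gene in each barcode, not normalized, per the file headers. The submitters' processing notes name Cell Ranger 7.0, Seurat, mm10 and GRCm38, while the file headers name Cell Ranger 6.1.2. Whether intronic reads or strand were used in counting is not given in the sources used here, so antisense partners cannot be told apart. The members, gene lists and marker lists were chosen with earlier results of these data known.

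Cells needed at least 300 genes and no more than 20% mitochondrial UMIs, and the highest Scrublet doublet scores were removed (0.8% per 1000 barcodes, 1 and 61 cells). Cells were clustered on 159 markers of 25 lists with scanpy 1.11.5 (anndata 0.12.19, 20 components, 15 neighbours, Leiden resolution 1.0 with igraph 0.11.9, seed 1). A class needed at least 3 markers at 10 CPM or more and a log2 ratio of 2 over the median cluster. Erythroid markers were merged with the vascular name, since that cluster carried both in library 1. UMIs were summed per class and library and compared in R 4.3.3 with edgeR 4.0.16 on limma 3.58.1 by its quasi-likelihood test, two-sided: TMM, filterByExpr, library as a block, Benjamini-Hochberg over all genes tested, threshold 0.05, at least 5 cells per class and library. The 2 libraries pair by construction, because both classes of a comparison come from each. A 2-class fit of 4 sums leaves 1 residual degree of freedom, so the spread is shared across genes. With library as a block, p-values set the class difference against variation between the 2 libraries, which may be technical. That variation is taken mostly from all genes, so a member's own disagreement between the libraries enters little. Folds of single libraries use a prior count of 2. The SE of a fold is its absolute value divided by the square root of the F statistic of its test. It is an approximation and is unreliable for small folds and for genes with few UMIs. Intervals cover counting error only. On simulated sums with 200 genes changed 4-fold, 86.5% were recovered for noradrenergic-like against other neurons and 87.0% for neurons against non-neuronal cells. Recovery was 81.5% for inhibitory-like against excitatory-like, 63.5% for OPC-like against oligodendrocyte-like and 67.5% for the astrocyte-like class contrast. No other class contrast was simulated. The simulation gave all genes the same assumed spread, gave the classes the same mean profile apart from the changed genes, and held no library effect. These rates therefore do not give the power of the real fits. Positions and lengths come from GENCODE M21 of GRCm38.

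Members are given with values where called in a 2-class comparison or higher in a class by a log2 fold of 1 or more. Folds are given for up to 10 called members per direction, and list genes are named by the 2 largest folds per direction. Fat3 and Dchs2 in noradrenergic-like neurons, and a neuron cluster with Cdh18 among its 10 leading genes, were named after their values were seen. Alternatives were DESeq2 1.42.0, other size factors (RLE), no low-count filter, no block, single libraries, resolution 2.0, at least 500 genes, 2 times the doublets, cells thinned to 2000 UMIs, and for noradrenergic-like cells a marker gate and another reference. Figures were drawn with matplotlib 3.10.9 in Python 3.11.15, and intervals came from scipy 1.17.1.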

Additional observations from a re-analysis of the deposited data

How the results depend on the processing

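Of 172 called folds of members, 122 kept their call and direction under every alternative run that tested them. Single libraries give no call and did not enter this count. A run that left a member untested did not count against it. In neurons against non-neuronal cells DESeq2 called 11 members in place of 20. In inhibitory-like against excitatory-like neurons, where 5 were called, the count was 1 with DESeq2, 1 with no replicate block, 3 at Leiden resolution 2.0, 3 with at least 500 detected genes, 1 with 2 times the doublets removed and 1 with cells thinned to at most 2000 UMIs. Over all genes that comparison gave 479 calls, and 54 with DESeq2, 214 with no replicate block, 319 at resolution 2.0, 272 with at least 500 genes, 191 with 2 times the doublets removed and 61 with thinned cells. DESeq2 called 3940 of all genes in place of 6733 for neurons, 1116 in place of 3367 for noradrenergic-like neurons and 688 in place of 1430 for OPC-like cells, and thinning gave 1080 in place of 3367 and 829 in place of 1430 for the last 2. The counts of members called for noradrenergic-like neurons, for OPC-like cells and over all pairs of member and class (74 higher, 49 lower) stayed within 1.5 times. Within single classes they did not all do so: with thinned cells 5 of the 7 lower calls of trigeminal-like cells and the 1 higher call of ependymal-like cells were lost. The direction turned in 4 cases. Pcdh1 in noradrenergic-like against other neurons was 0.005 with thinned cells. Cdh12 in granule-like cells was -0.30 with at least 500 genes, Cdh10 in noradrenergic-like cells against the mean class was -0.052 with thinned cells, and Cdh18 in OPC-like cells against the mean class was -0.166 without replicate 2 and 1.635 without replicate 1. The cause was not tested. Without a library no count could be given, because no residual degree of freedom is left. OPC-like cells against oligodendrocyte-like cells were not run with at least 500 genes, since no OPC-like cluster was named there. In the paired fits the replicate block changed no count by over 1.5 times other than that of inhibitory-like neurons, from 1 with no replicate block to 5. Depth limits members under 20 UMIs and OPC-like, granule-like and vascular-like cells of either library.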
